A study of Drosophila melanogaster with 2 samples.

Results

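Drosophila melanogaster has a family of genes for forkhead (Fox) transcription factors, and 8 of them are described here: fkh, slp1, slp2, croc, bin, jumu, foxo and FoxK. The data show where a Gsc-eGFP fusion protein was found on the genome near these genes, as read by ChIP-seq, in which DNA pulled down with the protein by an antibody to GFP is sequenced. Whole embryos aged 0 to 24 h of a transgenic Gsc-GFP strain were used, in 1 group of 2 biological replicates from the same strain, with chromatin broken to 200 to 800 bp. The labels give no second condition, do not name what drives the fusion protein, and do not separate tissues or stages within the 24 h. No control library was used here. The genes were selected on the signal of regions near them, so the counts and signals below are a description and no test was made on them. The replicates are separate biosamples per the labels, which describe the strain as carrying an insertion aimed at Gsc. A region was given to a gene when its summit lay nearest to a transcription start site (TSS) of that gene among protein-coding genes, or inside the gene. By this rule the 8 genes, of 13968 protein-coding genes, held 3 of the 1655 regions of the thresholded list and 91 of the 121914 regions of the ranked list behind it.

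Forkhead proteins bind DNA through a winged-helix domain, and several of them open or maintain regulatory programmes early in development. In the fly embryo fkh acts in the gut ends and salivary glands, slp1 and slp2 in segmentation and the head, croc in the head, and bin in the visceral mesoderm. Gsc is the fly Goosecoid, a homeodomain protein that acts in the head and in the foregut-associated nervous system. Nearness of a region to a gene says where the protein was found and not whether it controls that gene.

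Of the 8 genes, slp2 and bin had a region in the thresholded list of both replicates together, 2 of 8 against 9.09% of all protein-coding genes (1270 of 13968). The genes were selected on this signal, so nothing is read from that difference. The slp2 region had a signal of 274 and the stronger bin region 134. foxo had a thresholded site upstream in each replicate's own list and none in the lists made from both replicates together. slp1, croc, fkh and jumu had regions in the ranked list only, and FoxK had none in any list examined. The signal value is the authors' own, on a scale not given in the sources used here. Over the 1409 thresholded regions on the arms with a value in both replicates, the value from both together was 0.994 times the sum of the 2 replicates' values (median, quartiles 0.957 and 1.02).

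The sequences at the 3 sites of slp2, bin and foxo are given on the forward strand of the RefSeq Release 6 genome (dm6). Capitals mark any of 7 words searched on both strands: the homeodomain cores TAATCC (as read by Bicoid-type homeodomains such as that of Gsc) with the commoner core TAATTA, the forkhead words TGTTTAC with the shorter TAAACA, the Zelda word CAGGTA, the GAGA factor word GAGAG, and lastly the word ACAGTG. A match on the reverse strand shows as the reverse complement, so its letters differ from the word. The shorter forkhead word lies within the reverse complement of TGTTTAC, so a match to the longer word also counts for the shorter. The slp2 sequence is the whole region (chr2L:3832426-3832596). The bin sequence spans both summits (chr3L:6989231-6989530), and the foxo sequence is the stretch shared by the regions of both replicates (chr3R:14053477-14053764).
slp2: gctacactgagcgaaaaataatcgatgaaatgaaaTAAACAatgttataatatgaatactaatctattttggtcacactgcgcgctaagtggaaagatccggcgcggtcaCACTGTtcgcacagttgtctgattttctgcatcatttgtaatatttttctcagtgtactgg
bin: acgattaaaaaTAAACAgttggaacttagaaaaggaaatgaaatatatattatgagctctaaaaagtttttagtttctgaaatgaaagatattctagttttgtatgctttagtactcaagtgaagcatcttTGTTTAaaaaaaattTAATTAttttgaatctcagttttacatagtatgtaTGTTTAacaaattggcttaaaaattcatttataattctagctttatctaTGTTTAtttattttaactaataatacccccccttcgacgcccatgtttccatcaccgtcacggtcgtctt
foxo: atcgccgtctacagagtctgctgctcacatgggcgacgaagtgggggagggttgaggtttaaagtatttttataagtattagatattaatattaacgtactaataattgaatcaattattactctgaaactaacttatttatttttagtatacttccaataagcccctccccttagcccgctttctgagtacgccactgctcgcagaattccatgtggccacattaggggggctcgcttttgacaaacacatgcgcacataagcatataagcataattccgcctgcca

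The strongest region of the 8 genes lay between slp1 and slp2, adjacent paralogous genes that point the same way on arm 2L (FBgn0003430, chr2L:3825675-3827099, and FBgn0004567, chr2L:3836840-3839185). Its summit was 4312 bp upstream of the slp2 TSS and 5429 bp past the end of slp1, in intergenic sequence. The signal was 137 in replicate 1 and 137 in replicate 2 (137 ± 0.641, SD, n = 2), so the replicates gave nearly the same value, and their summits were 23 bp apart. The region was in the thresholded list of each replicate and in the conservative list. It ranked 144 of the 1470 thresholded regions on the arms. Just above it in signal was a promoter region of NK7.1 (275), a homeobox gene, and just below it one of bowl (274), a zinc finger gene of the odd-skipped family. Among the 16 other ranked regions of slp2 the highest signal was 42.3. By score, the region of these genes closest under 830, the lowest score in the thresholded list, was one of those 16. Its score was 345 and its signal 41.2. The bin regions, at a score of 935, were the closest above 830.

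bin (FBgn0045759, chr3L:6990622-6994447, forward strand) codes for Biniou, the FoxF homologue of the visceral mesoderm. It had 2 thresholded regions upstream of its TSS, at 1348 bp with a signal of 134 and at 1135 bp with a signal of 24.8 (chr3L:6989106-6989441 and chr3L:6989319-6989654). They overlapped by 123 bp and their summits were 213 bp apart, so they are not independent sites and share their replicate values. Each replicate's own list held 1 region there, with a signal of 70.6 in replicate 1 and 64.0 in replicate 2 (67.3 ± 4.68, SD, n = 2). The summit of replicate 1 fell between the 2 summits, 89 bp from the stronger and 124 bp from the weaker. The site was thresholded in replicate 2, where its score was 1000, and not in replicate 1, where its score was 275. The stronger region ranked 488 of 1470, between a region of robl37BC (134) and one of PIG-M (134). Inside bin the ranked list held 6 further regions, none with a signal over 42.1.

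**Figure D1:**
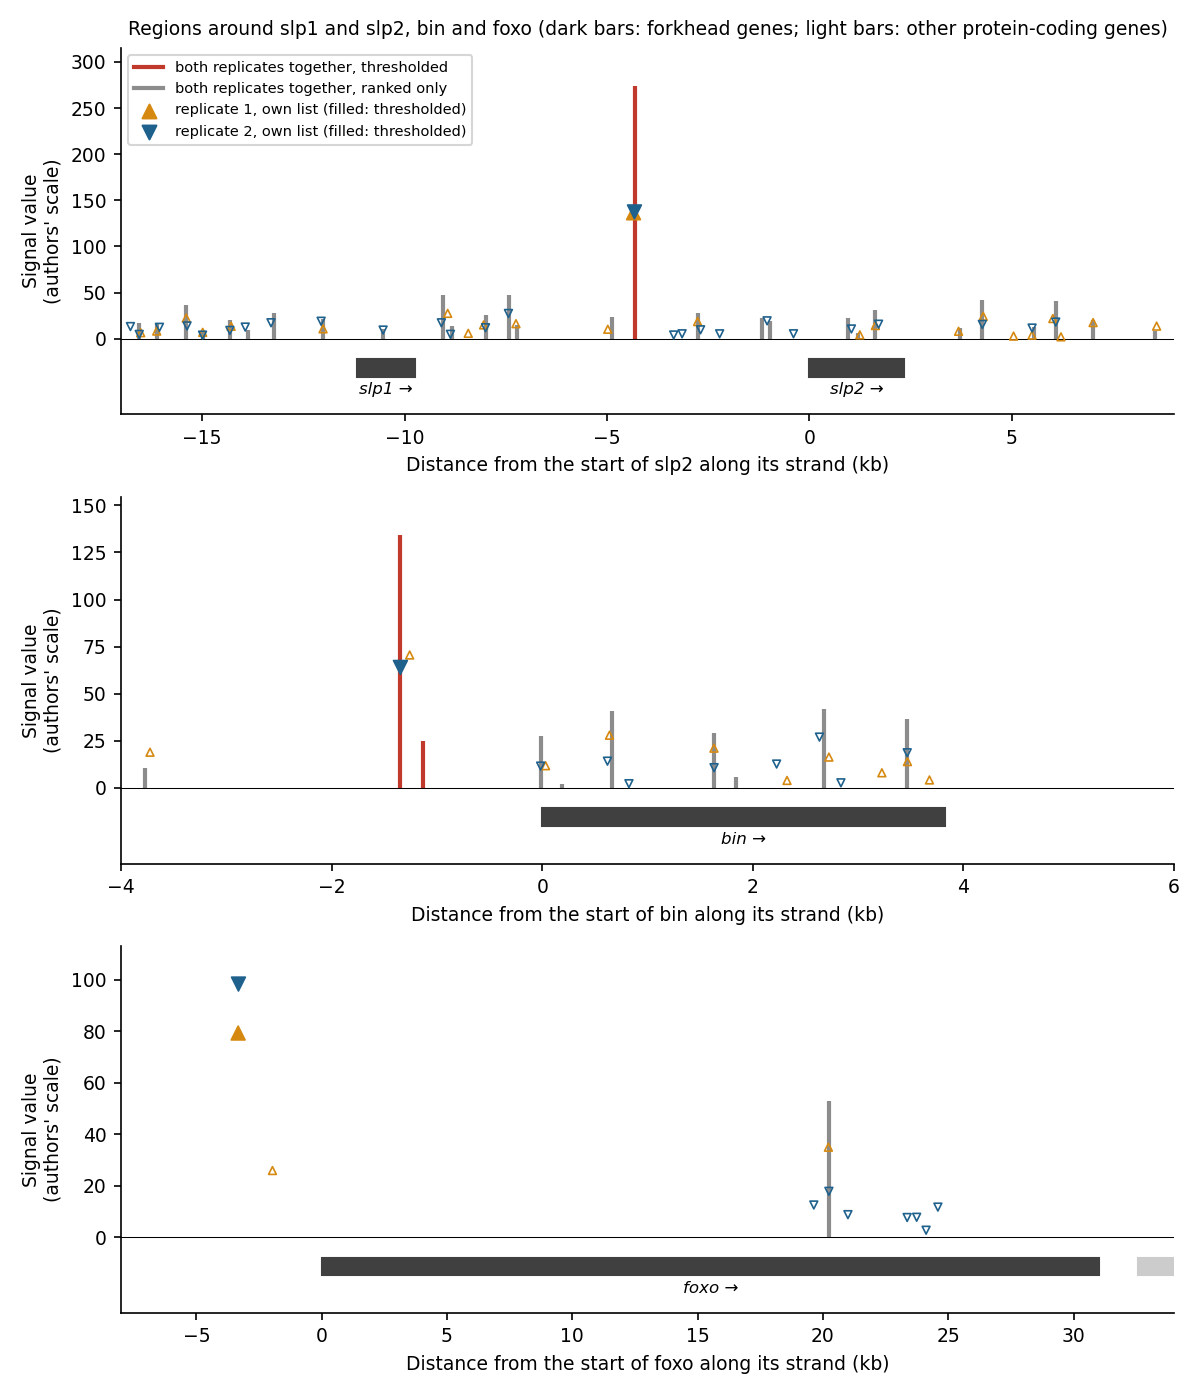
Signal of regions (vertical axis, the authors' scale) against distance in kb from the start of slp2, bin and foxo (horizontal axis), with lines for both replicates together and triangles for each replicate's own ranked list. The slp2 region and the stronger bin region are the highest of their panels at 274 and 134, and upstream of foxo both replicates have filled triangles, at 79.3 and 98.4, with no line.

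foxo (FBgn0038197, chr3R:14056945-14087978, forward strand), the effector of insulin signalling, had a site that both replicates listed above threshold. It was intergenic, with summits 3332 bp upstream of the TSS in replicate 1 and 3320 bp upstream in replicate 2, which were 12 bp apart (chr3R:14053461-14053764 and chr3R:14053477-14053772). The signal was 79.3 in replicate 1 and 98.4 in replicate 2 (88.8 ± 13.5, SD, n = 2), ranks 499 of 1188 and 260 of 967 in the thresholded lists. Both values were above those of bin in the same replicate. No region of either ranked list of both replicates overlapped the site, and the nearest summit there was 23580 bp away. Of the 646 regions on the arms that overlapped between the thresholded lists of the replicates, 9 (1.39%) were over no region of either of these ranked lists. The sum of the foxo signals was 178, and 342 of the 1655 regions of the thresholded list from both replicates had a signal above that. The only ranked region given to foxo from both replicates lay in an intron, 19274 bp past the nearest TSS of foxo, with a signal of 52.9 and a score of 65. Its nearest TSS was that of Npc2b, 12324 bp away. There the replicates had 35.0 and 17.8 (26.4 ± 12.1, SD, n = 2).

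slp1, the partner of slp2 in segmentation, had 14 ranked regions and none above threshold. The strongest lay 2115 bp downstream of its TSS with a signal of 47.6, and the next 3734 bp downstream with 47.0. Both were past the end of slp1, in intergenic sequence between slp1 and slp2. Replicate 1 had 27.6 at the first and 16.4 at the second, and replicate 2 had 17.3 at the first and 27.4 at the second. Each replicate thus put another of the 2 sites higher. The first site, shown for comparison with that of slp2, is at chr2L:3827740-3827840.
slp1: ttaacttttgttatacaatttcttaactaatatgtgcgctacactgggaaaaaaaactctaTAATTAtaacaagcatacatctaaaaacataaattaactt

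croc (FBgn0014143, chr3L:21474133-21476479, reverse strand), the FoxC homologue, had 9 ranked regions, led by one 3559 bp downstream of its TSS with a signal of 43.5. That region was intergenic, past the end of croc. The replicates had 20.9 and 17.4 there (19.1 ± 2.44, SD, n = 2). fkh (FBgn0000659, chr3R:28580976-28585264, reverse strand), the FoxA homologue that gave the family its name, had the most ranked regions of the 8 genes, 39, which is more than 93.8% of protein-coding genes had as candidates. Some of the 39 overlapped each other, so they are not all separate sites. Of the 39, 35 lay outside protein-coding genes, 7 of them inside the noncoding gene lncRNA:CR43126, and none passed the threshold. Its strongest lay in coding sequence 845 bp from the TSS with a signal of 38.6, and the replicates had 13.7 and 19.8 there (16.7 ± 4.27, SD, n = 2). jumu (FBgn0015396, chr3R:10350182-10361612, forward strand), a FoxN-like gene, had 2 ranked regions, both in its coding sequence, with signals of 20.5 and 4.53. They were given to jumu by its gene body, 9544 and 9942 bp from its TSS. The nearest TSS was that of Rfx, 7753 and 7355 bp away. The stronger had a value of 7.88 in replicate 1 and no overlapping region in replicate 2. FoxK (FBgn0036134, chr3L:11114169-11120783, reverse strand) had no ranked region in either replicate or in both together, so it has no signal value.

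**Figure D2:**
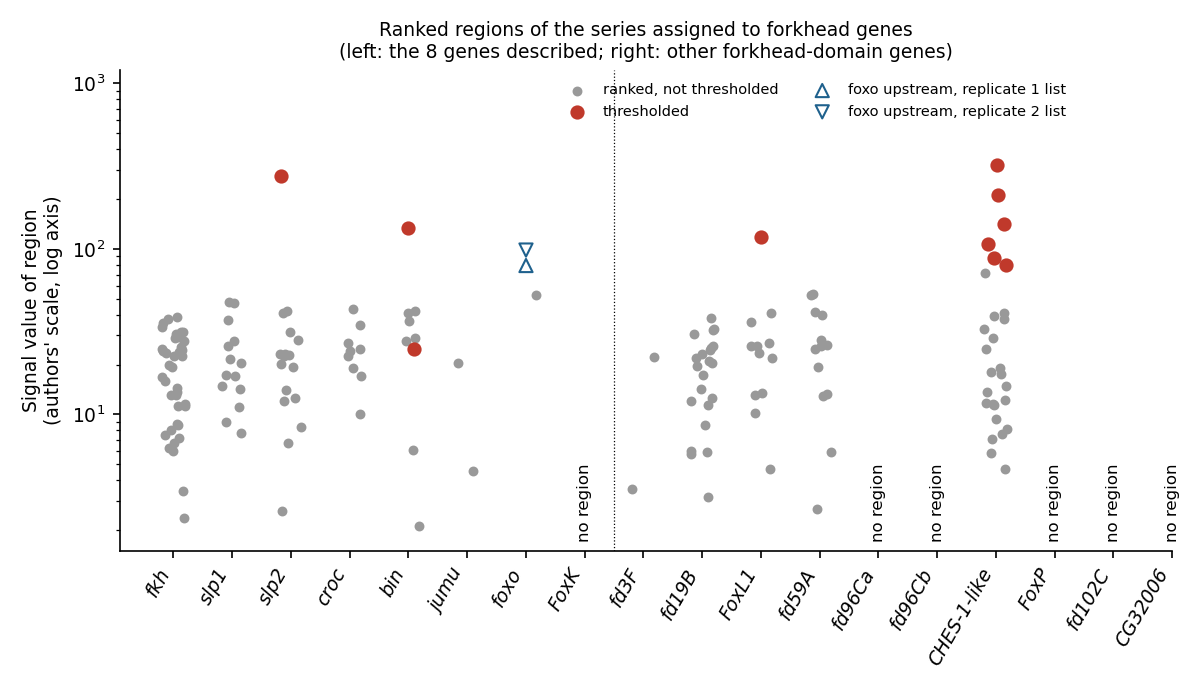
Signal of each ranked region from both replicates together (vertical log axis) by gene (horizontal axis), with thresholded regions in red, other ranked regions in grey, and the foxo upstream site from each replicate's own list as open triangles. The red points of slp2 and bin reach 274 and 134, while the grey points of fkh, slp1, croc and jumu stay at or below 47.6.

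Ordered by their strongest region in the list from both replicates, the genes ran slp2 (274), bin (134), foxo (52.9), slp1 (47.6), croc (43.5), fkh (38.6) and jumu (20.5). At these regions the replicate values of slp2 and of bin lay apart from each other and from the rest by more than their SDs. The values of foxo, slp1, croc and fkh overlapped within their SDs and are not told apart by 2 replicates. Over the 3 thresholded regions of slp2 and bin the median signal was 134, against 97.4 over the other 1467 on the arms (log2 ratio 0.46). The overlapping bin pair makes up 2 of these 3, and with 1 region kept wherever regions overlap the medians were 204 and 100.02 (log2 ratio 1.03). The quartiles of the other regions were 72.1 and 159, so the stronger bin region lay inside that range and the slp2 region above it. The weaker bin region, at 24.8, lay below that range and ranked 1423 of 1470.

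Below the threshold the 8 genes had 88 candidate regions, which are ranked regions under the threshold score and over no thresholded region, with a median signal of 21.1 against 19.7 for the 115825 others. The highest candidate was the foxo intron region, at the 98.6th percentile of all candidates, followed by slp1 at the 97.0th, croc at the 94.9th, slp2 at the 93.9th, bin at the 93.8th, fkh at the 90.7th and jumu at the 52.6th. Location was read from protein-coding genes alone, so a region called intergenic can lie in a noncoding gene. By location 68 of the 88 (77.3%) were intergenic, 14 (15.9%) in coding sequence and 3 (3.41%) in introns, against 32.2%, 19.0% and 37.9% of all candidates. Of the 68, 8 lay inside a noncoding gene, 7 near fkh and 1 near slp2. Of the 88, 39 were given to fkh. Of the 88 candidates, 62 had a region in both replicates, with a median log2 ratio of replicate 2 to replicate 1 of -0.49 and an SD of 1.06. Some candidates overlapped each other and shared the same replicate regions. The 88 are therefore not all separate sites, and the 62 ratios count some replicate values more than once. Of the 70 candidates of 10 other forkhead-domain genes, described below, 41 had a region in both replicates, with a median of -0.09 and an SD of 0.83. The same values over all candidates are not given here. Over the thresholded list that ratio had a median of -0.24 and an SD of 0.61. Its regions passed a threshold that rewards agreement between sets of regions, so its narrower spread says nothing about these genes.

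The replicates placed their strongest region at the same spot for 3 of the genes. In each replicate's own ranked list the strongest region of the gene was taken, and the summits lay 23 bp apart for slp2, 88 bp for bin and 12 bp for foxo. For jumu they were 389 bp apart, for slp1 1500 bp, for fkh 4412 bp and for croc 5136 bp. Over all 1080 protein-coding genes with a thresholded region in at least 1 replicate the median was 25 bp, and 74.4% were within 100 bp. Over the 8164 genes with none the median was 1166 bp and 20.3% were within 100 bp. The irreproducible discovery rate (IDR), by which the authors ranked and thresholded regions, rewards such agreement between sets of regions, so this is a description of the lists.

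**Figure D3:**
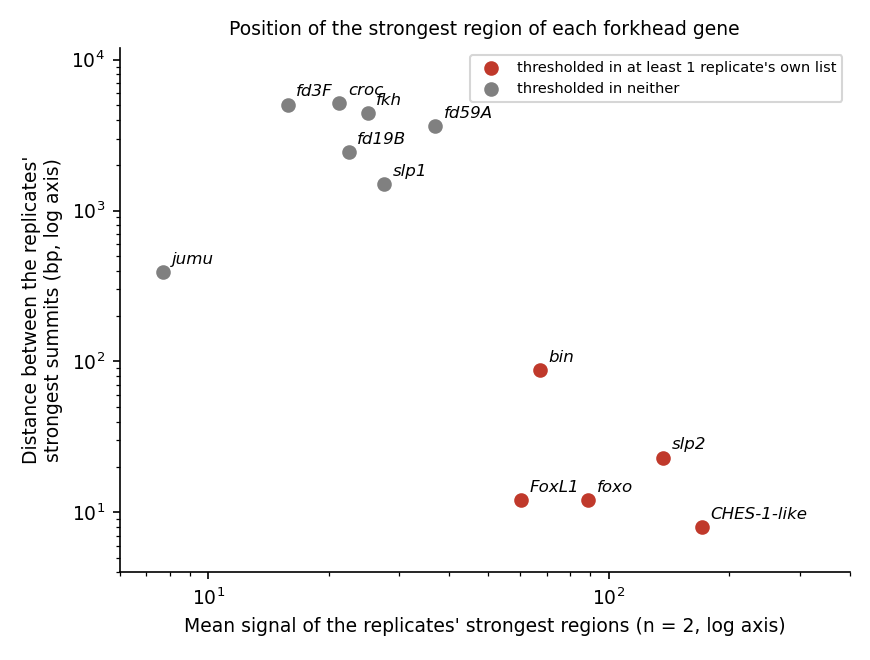
Distance in bp between the summits of the strongest region in each replicate's own list (vertical log axis) against the mean of the 2 signals (horizontal log axis), for the 12 forkhead genes with regions in both. Genes thresholded in at least 1 replicate, in red, lie at 88 bp or less, and the others, in grey, at 389 bp or more.

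The homeodomain core TAATCC was not found within 50 bp of the summits of the 3 thresholded regions, nor at the foxo site. It was in 3.67% of the 1470 thresholded regions on the arms and 2.90% of all candidates, and with 3 regions a count of 0 cannot be set against such shares. Also in none of the 3 were the homeodomain word TAATTA (7.89% of the thresholded list), the longer forkhead word TGTTTAC (1.84%), the Zelda word CAGGTA (1.97%) and the GAGA factor word GAGAG (8.57%). The forkhead word TAAACA was within 50 bp of both bin summits, against 11.4% of thresholded regions and 6.22% of candidates. These summits belong to overlapping regions and are not independent. The bin sequence above holds TAAACA 4 times, a count over a stretch of 300 bp that is not comparable with those shares. Besides, the bin sequence holds TAATTA once. ACAGTG, chosen because an earlier look at this list had shown it to be frequent, was at the slp2 summit, against 6.12% of thresholded regions and 4.11% of candidates. The slp2 region also holds TAAACA once, farther from the summit. The foxo sequence holds none of the 7 words. GC content within 50 bp of the summit was 43.6% at slp2, 23.8% and 39.6% at the bin summits, and 30.7% and 35.6% at the foxo summits of replicates 1 and 2, against a median of 33.7% in the thresholded list and 48.5% in candidates. The 88 candidates of the 8 genes had 49.5%. A word match describes the letters at a site and not binding by the named factor.

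In the replicates' own thresholded lists the genes with a region changed. In replicate 1 they were slp2 and foxo, 2 of 8, against 7.0% (978) of protein-coding genes, and in replicate 2 slp2, bin and foxo, 3 of 8, against 5.66%. The conservative list again held slp2 and bin, against 8.67%. In the ranked list from both replicates 7 of the 8 genes had a region, against 69.3%. These shares rest on 8 genes chosen with their signal known.

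Of the 10 other forkhead-domain genes listed for comparison, 2 had thresholded regions, against 9.09% of all protein-coding genes. Nothing is read from this share, which rests on 10 genes. Those with thresholded regions were CHES-1-like and FoxL1. CHES-1-like (FBgn0029504, chrX:7682338-7709385, reverse strand), which is related to human FOXN genes, had 6, more than any of the 8 genes above, and only 9 protein-coding genes had more. All 6 lay inside the gene on the X chromosome, 5 in introns and 1 in the promoter 167 bp from a TSS. Neighbouring summits were 1480 to 3035 bp apart, and the 6 summits spanned 10788 bp. The strongest had a signal of 322, with 206 in replicate 1 and 135 in replicate 2 (171 ± 50.6, SD, n = 2), and ranked 101 of 1470. The others had 212, 142, 107, 88.1 and 79.5. Against the slp2 region the strongest CHES-1-like region was higher in replicate 1 and lower in replicate 2, so the order of these is not settled by 2 replicates. FoxL1 (FBgn0004895, chr3L:4018878-4021279, forward strand) had a region 1981 bp upstream of its TSS with a signal of 119, with 66.2 in replicate 1 and 54.8 in replicate 2 (60.5 ± 8.02, SD, n = 2). The FoxL1 site was thresholded in replicate 1 only. Within 50 bp of the summit ACAGTG was found in 2 of the 6 CHES-1-like regions and in the FoxL1 region, 3 of 7 against 6.12% of the thresholded list, for a word picked from that list. The strongest CHES-1-like region (chrX:7706887-7707087) was not among them: its only copy lies farther from the summit. The FoxL1 sequence (chr3L:4016797-4016997) holds 3 copies and TAAACA once.
CHES-1-like: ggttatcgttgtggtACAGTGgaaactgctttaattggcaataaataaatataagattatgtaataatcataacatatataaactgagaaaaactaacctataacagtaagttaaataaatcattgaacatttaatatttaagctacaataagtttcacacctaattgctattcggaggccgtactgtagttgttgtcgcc
FoxL1: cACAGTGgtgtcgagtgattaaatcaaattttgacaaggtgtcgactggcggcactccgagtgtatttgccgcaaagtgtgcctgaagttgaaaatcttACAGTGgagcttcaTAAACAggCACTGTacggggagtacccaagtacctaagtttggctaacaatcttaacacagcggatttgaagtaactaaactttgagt

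**Figure D4:**
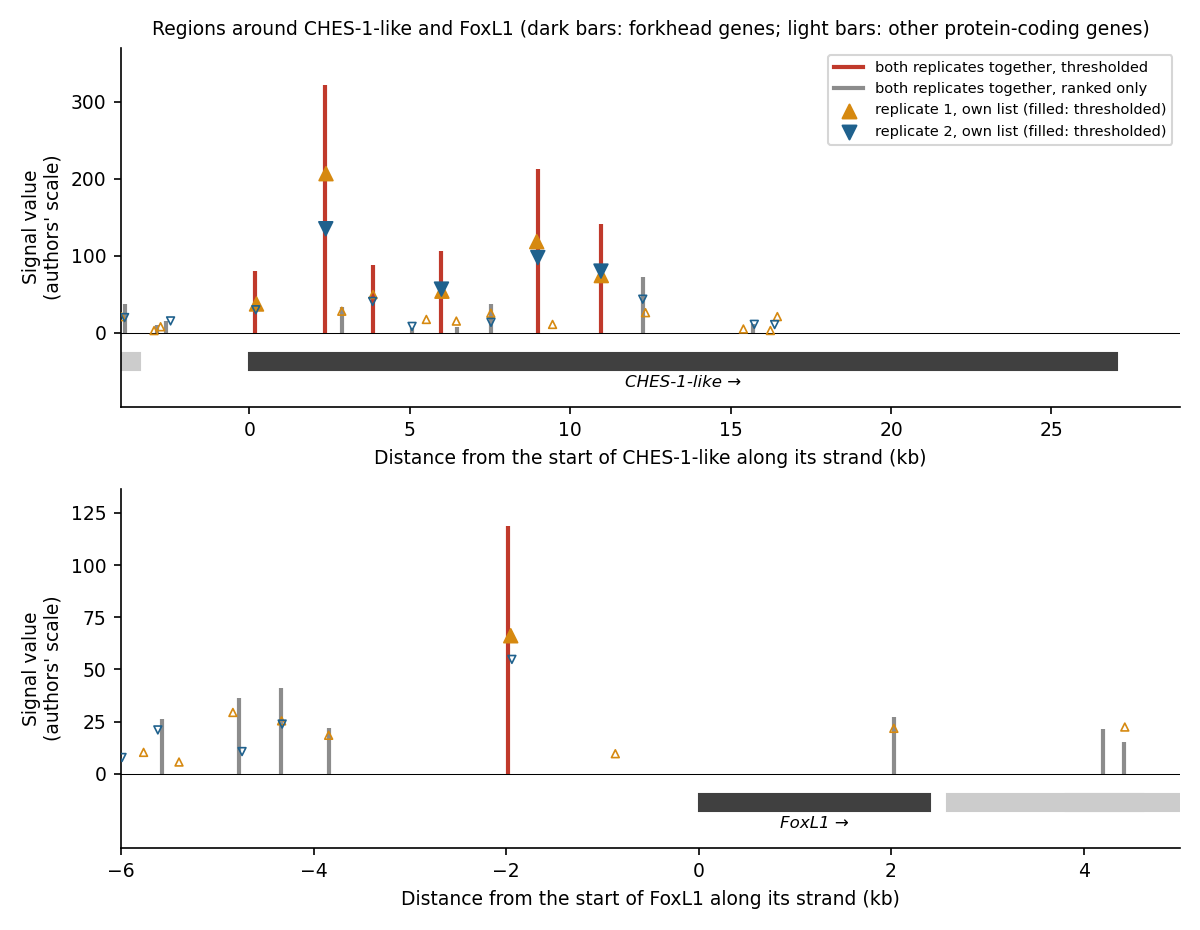
Signal of regions (vertical axis, the authors' scale) against distance in kb from the start of CHES-1-like and FoxL1 along their strands (horizontal axis), with lines for both replicates together and triangles for each replicate's own list. CHES-1-like has 6 red lines between 79.5 and 322 within its 5′ part, and FoxL1 a single one at 119 upstream.

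**Figure D5:**
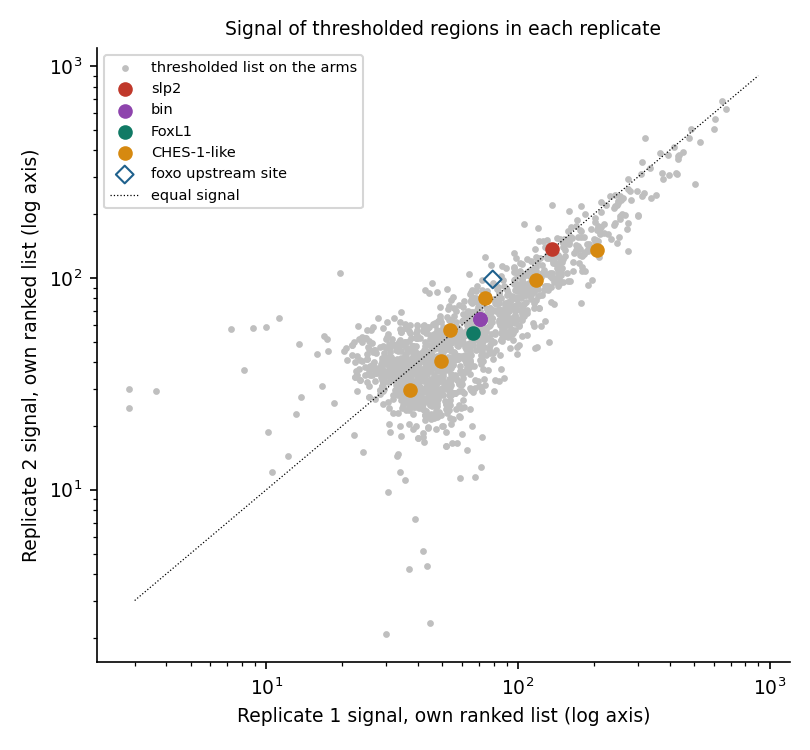
Signal of thresholded regions on the arms in replicate 2 (vertical log axis) against replicate 1 (horizontal log axis), in grey, with forkhead genes in colour and the foxo upstream site as an open diamond. slp2 lies on the line of equal signal at 137 in each replicate, and the foxo site, at 79.3 and 98.4, lies within the cloud of thresholded regions.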

How the data were processed

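The build is dm6, per the labels. Aligner and caller names were not given in the sources used here. Ranked and thresholded region lists were deposited by the authors for each replicate and for both together. The signal value per region is the authors' own and was used to describe and rank regions. The score per region, as deposited, is the authors' scaled IDR value of at most 1000, and the lowest score in the thresholded list was 830. The files hold no read counts, so depth is unknown. The ranked lists of both replicates also hold columns of values per set of regions, 16 in all over these lists. They were not tied to a replicate by name and were not used.

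Genes came from Ensembl release 115 and sequence from the RefSeq Release 6 genome; all 18 forkhead genes had the same start and end in RefSeq. Regions on unplaced scaffolds got no gene (7 arms were kept). The summit set the gene and location (promoter within 500 bp of a TSS, then UTR, coding sequence, intron, intergenic), with protein-coding genes alone. A replicate's value was read off its own ranked regions by the longest overlap of at least 1 bp, so neighbouring regions can share a value. Python 3.11.15 and pandas 2.3.3 were used, and the assignment was tested on simulated data.

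The genes and lists were chosen with earlier results of these data known. The text names all 8 genes, the other forkhead-domain genes with a thresholded region or the strongest ranked region, any gene sharing a thresholded region, and the genes next in rank to the slp2 and bin regions.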

Additional observations from a re-analysis of the deposited data

How the results depend on the processing

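The count of 3 thresholded regions at 2 genes stayed within 1.5 times in the conservative list, in the stronger 50% of regions, with the nearest TSS alone, with TSS of all annotated genes and with 1 region kept where regions overlap. With gene bodies alone it was 0 regions and 0 genes, since all 3 regions lie upstream. Leaving out a replicate gave 2 to 3 regions and 2 to 3 genes, with foxo added in both cases and bin lost without replicate 2. The log2 ratio of median signal, 0.46, was 0.42 in the conservative list, 0.36 in the stronger 50%, 1.03 with 1 region kept where regions overlap, and 0.54 to 0.59 with a replicate left out. This ratio rests on 2 or 3 regions and has no value with gene bodies alone. The genes were selected on the signal of their regions, so nothing is read from its positive sign in each of these settings. The replicate means at the strongest regions of fkh, slp1, slp2, croc, bin and foxo did not change with an overlap of at least 50% of the shorter region. No paired analysis was possible because there is 1 group. With 2 replicates and no read counts, small differences in signal cannot be resolved.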

Other observations

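Among the other forkhead-domain genes without a thresholded region, fd59A, which is expressed in the nervous system, had the strongest ranked region. Its signal was 53.7, in coding sequence 1190 bp from the TSS, with 15.4 in replicate 1 and 38.8 in replicate 2 (27.1 ± 16.6, SD, n = 2). A second fd59A region, 2388 bp upstream, had 52.4, with 35.0 in replicate 1 and 18.8 in replicate 2, so the replicates again put different sites higher, as at slp1. CHES-1-like had a further region with a score of 810, just under 830, the lowest score in the thresholded list. Its signal was 71.7, and it lay in a promoter 420 bp from a TSS. No ranked region from both replicates was given to fd96Ca, fd96Cb, FoxP, fd102C or CG32006, which are named after their values were seen.

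The 9 sites that both replicates listed above threshold and that lay over no region of the ranked lists from both together had a median summed signal of 178, which is that of the foxo site itself. foxo ranked 5 among these 9. Why these sites are outside the lists from both replicates was not tested.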
